A study of Mus musculus with 15 samples.

Results

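The genes examined were the 4 syndecan genes, Sdc1, Sdc2, Sdc3 and Sdc4, and 4 genes of heparan sulfate synthesis, Ext1, Ext2, Ndst1 and Ndst2, followed from naive B cells to plasmablasts. They were taken by symbol, and all 8 were among the 21669 genes with a symbol in the deposited table. Sdc2 did not pass the filter on low values (at least 1 RPKM, reads per kilobase of gene length scaled to the library's total, in at least 3 of the 15 columns), so 7 of the 8 were tested. In mm9, the build of the deposited data, the syndecan genes lie at chr12:8778129-8800521 (Sdc1, plus strand), chr15:32850478-32964485 (Sdc2, plus), chr4:130348452-130382234 (Sdc3, plus) and chr2:164249747-164269387 (Sdc4, minus). Ext1 lies at chr15:52895593-53177714, Ext2 at chr2:93535788-93662725 and Ndst2 at chr14:21542952-21549766, all on the minus strand.

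Syndecans are transmembrane core proteins that carry heparan sulfate chains on the cell surface, where the chains bind growth factors, chemokines and matrix proteins. EXT1 and EXT2 form the Golgi polymerase that lengthens the chain, and the NDST enzymes then remove acetyl groups from it and add N-sulfate, the first step in the modification of the chain. Sdc1 encodes syndecan-1, known as CD138, the surface marker by which plasmablasts and plasma cells are recognised, and heparan sulfate on these cells is known to bind survival factors such as APRIL.

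The samples came from wild-type female C57BL/6J mice, which the study's methods give as 6 to 9 weeks old. Naive B cells (nB) were CD43- cells from spleen, purified by magnetic depletion and neither stimulated nor treated. The other groups were such cells cultured for 3 days, per the methods, with LPS and the cytokines IL2 and IL5, together with either DMSO, the solvent, or GSK343, an inhibitor of the histone methyltransferase EZH2 given at 2 μM in the methods. From each culture, activated B cells (actB) were sorted as B220+GL7+CD138- and plasmablasts (Pb) as CD138+. Each of the 5 groups had 3 libraries, but nB replicates 1 and 2 differed by less than the sampling noise (chi-square per degree of freedom of 0.00958, against at least 3.58 for every other pair within a group) and were averaged and counted as 1 sample, so n = 2 for nB and n = 3 elsewhere. The labels of the 3 Pb GSK343 libraries name Il6 where those of the other cultured groups name Il5, so in Pb the inhibitor and that difference in the label cannot be told apart. Since the gates used the protein made from Sdc1, its differences between actB and Pb, and between either and nB, describe the sort and were not read as a result.

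Libraries held 19421830 to 26307413 reads in genes. The 6 plasma cell markers (Prdm1, Xbp1, Irf4, Jchain, Tnfrsf17 and Slamf7) summed to 3112 to 3417 RPKM in Pb, to 511 to 687 in actB and to 243 to 256 in nB, and all 7 B cell markers were above 1 RPKM in every library. The nB libraries also held 195 to 240 RPKM summed over 9 myeloid markers, mostly Lyz2, against 0.501 to 14.2 in the cultured libraries, where S100a8 and S100a9 were at 0, and 24.1 to 26.1 RPKM over 7 T and NK cell markers, against at most 0.653 in the cultured libraries. Platelet and erythroid markers, mostly Hbb-b1, summed to 34.3 RPKM in the averaged nB sample and 138 in nB replicate 3. In the cultured libraries they summed to 2.04 to 19.3 RPKM. The part of these cells in each difference from nB below was not tested. In bulk RNA, fewer cells of a type and less RNA per cell cannot be told apart.

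Sdc4, Sdc1 and Ext2 are shown by the stretch before their start in RefSeq, the part of the gene nearest to where transcription begins. They were chosen because they rose with GSK343 in Pb (below). A tie between these stretches and that rise was not tested. Of the 8 genes, 5 had an entry in the RefSeq promoter table, built on GRCm38.p6, and the 250 bases before the start of each were placed on mm9 by exact match. Only bases outside exons of protein-coding genes are printed, 5′ to 3′ on the gene's strand, and capitals mark GGGCGG, the GC box, on either strand.

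Sdc1 (mm9 chr12:8777952-8778128, plus strand): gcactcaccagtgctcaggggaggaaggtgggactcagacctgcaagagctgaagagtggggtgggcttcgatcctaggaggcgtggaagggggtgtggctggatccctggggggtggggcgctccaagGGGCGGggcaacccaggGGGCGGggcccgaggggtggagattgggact

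Sdc4 (mm9 chr2:164268689-164268938, minus strand): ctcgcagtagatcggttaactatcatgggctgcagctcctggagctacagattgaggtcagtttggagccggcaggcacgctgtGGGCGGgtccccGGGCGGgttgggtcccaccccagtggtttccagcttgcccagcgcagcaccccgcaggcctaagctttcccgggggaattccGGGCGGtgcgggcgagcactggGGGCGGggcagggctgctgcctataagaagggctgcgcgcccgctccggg

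Ext2 (mm9 chr2:93662726-93662975, minus strand): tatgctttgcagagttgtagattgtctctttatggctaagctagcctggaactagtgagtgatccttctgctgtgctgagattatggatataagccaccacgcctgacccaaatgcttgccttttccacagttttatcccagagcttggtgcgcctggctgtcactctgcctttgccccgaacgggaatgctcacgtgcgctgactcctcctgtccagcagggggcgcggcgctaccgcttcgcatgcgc

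The GC box stood 2 times in the 177 bases of Sdc1 and 4 times in the 250 bases of Sdc4, and was not in the 250 bases of Ext2. It also stood 3 times in the 250 bases of Sdc3 and 3 times in those of Ndst2. These genes are not printed, and the main limma fit called neither with GSK343 in Pb. It was found in 32.7% of the 32841 promoters in the table at this length. In the full 250 bases the number of CpG dinucleotides was 10 for Sdc1, 19 for Sdc4 and 12 for Ext2, against a median of 6 over all promoters. It was 32 for Sdc3 and 15 for Ndst2. The Sdc1 stretch ends where the first Sdc1 exon of the GENCODE vM1 annotation begins, and the Sdc4 stretch lies in an intron of a longer Sdc4 transcript.

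Among the syndecans, Sdc4, a widely expressed member that gathers at sites of cell adhesion, had the highest level per length in every library. Its level was 92.7 and 84.4 RPKM in nB, 56.0, 60.8 and 59.6 in actB with DMSO and 60.8, 55.6 and 65.5 in Pb with DMSO. With GSK343 it was 80.5, 74.9 and 77.4 RPKM in actB and 80.9, 80.4 and 83.8 in Pb. The libraries with GSK343 lay above those with DMSO in both cell types with no overlap and all below both nB libraries.

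Sdc1 was at 5.22 and 5.12 RPKM in nB. In actB, the CD138- gate, it was at 0.769, 0.694 and 0.532 RPKM with DMSO and at 1.16, 0.774 and 0.962 with GSK343, from 44 to 104 reads a library. In Pb, the CD138+ gate, it was at 28.8, 30.4 and 29.8 RPKM with DMSO and at 58.8, 53.3 and 53.7 with GSK343. The order of the group means was thus Pb with GSK343, Pb with DMSO, nB, actB with GSK343 and actB with DMSO, and no group's range overlapped that of its neighbour.

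Sdc3, the syndecan best known from neurons, stood out by its spread. It was at 6.402 and 8.446 RPKM in nB. In actB it was at 2.56, 8.78 and 2.55 RPKM with DMSO (replicates 1, 2 and 3) and at 2.65, 7.33 and 2.65 with GSK343. In Pb it was at 7.99, 17.9 and 8.36 RPKM with DMSO and at 5.96, 12.2 and 5.62 with GSK343. Replicate 2 was the highest in each of the 4 cultured groups, by 3.44-fold and 2.77-fold over the mean of the other libraries in actB with DMSO and GSK343, and by 2.19-fold and 2.12-fold in Pb. For the other 6 genes tested that ratio ran from 0.729 to 1.301. The myeloid markers of replicate 2 summed to 4.18 RPKM in actB with DMSO and 8.34 with GSK343, the lowest library of each group. Most of these sums was Itgam, at 3.50 and 6.60 RPKM. In Pb replicate 2 the sums were 0.949 and 1.18 RPKM, within 0.501 to 1.29 over all Pb libraries. Lyz2 was highest in replicate 2 in actB with GSK343 (1.13 RPKM) and in Pb with DMSO (0.440). In Pb with GSK343 it was at 0.614 RPKM there, against 0.759 in replicate 3. The sum of the stromal and endothelial markers was highest in replicate 2 of every cultured group. It was 48.0 and 39.3 RPKM there in actB with DMSO and GSK343, and 11.1 and 8.22 in Pb. Nearly all of it was Pecam1, which was at 110 to 112 RPKM in nB. In the cultured libraries Col1a1, Col1a2, Col3a1 and Dcn were at most 0.037 RPKM, Cdh5 at most 0.374 and Kdr at most 1.87. The B cell markers were also highest in replicate 2 of every cultured group. Platelet and erythroid markers were highest there in actB (13.1 and 19.3 RPKM) and in Pb with GSK343 (3.44), but not in Pb with DMSO (2.23). The part of any of these in Sdc3 was not tested. An exon of Sdc3 shares 48 bases with Gm12970 on the opposite strand, and the kit keeps strand, but whether the authors counted by strand is not given in the sources used here.

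Sdc2, found mainly on mesenchymal cells, had 1 read in the first nB library and 3 in replicate 3, and 0 reads in all 12 cultured libraries. A count of 0 allows up to 0.114 to 0.154 RPM, the deposited reads-per-library unit, depending on the library, for counting error only.

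The polymerase genes differed in their course. Ext1 was at 3.40 and 3.58 RPKM in nB, at 8.54, 9.89 and 9.09 in actB with DMSO and at 9.88, 11.4 and 9.20 in actB with GSK343. Ext2 was at 8.93 and 8.64 RPKM in nB, at 9.09, 9.06 and 9.12 in actB with DMSO and at 9.42, 9.33 and 9.20 in actB with GSK343. For Ext1 the ranges of both actB groups and Pb with DMSO overlapped, with nB below and Pb with GSK343 above, while for Ext2 no group's range overlapped another's.

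The sulfotransferase genes were highest in nB. Ndst1 with GSK343 was at 13.9, 12.02 and 13.3 RPKM in actB and at 12.52, 15.28 and 13.57 in Pb, against 26.3 to 29.0 in nB. Ndst2 was at 10.4, 10.6 and 11.1 RPKM in actB with GSK343, at 11.4, 10.9 and 11.1 in Pb with DMSO and at 10.2, 10.02 and 10.3 in Pb with GSK343. Among the cultured groups the Ndst2 range of actB with DMSO overlapped all others, and all lay under nB.

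**Figure D1:**
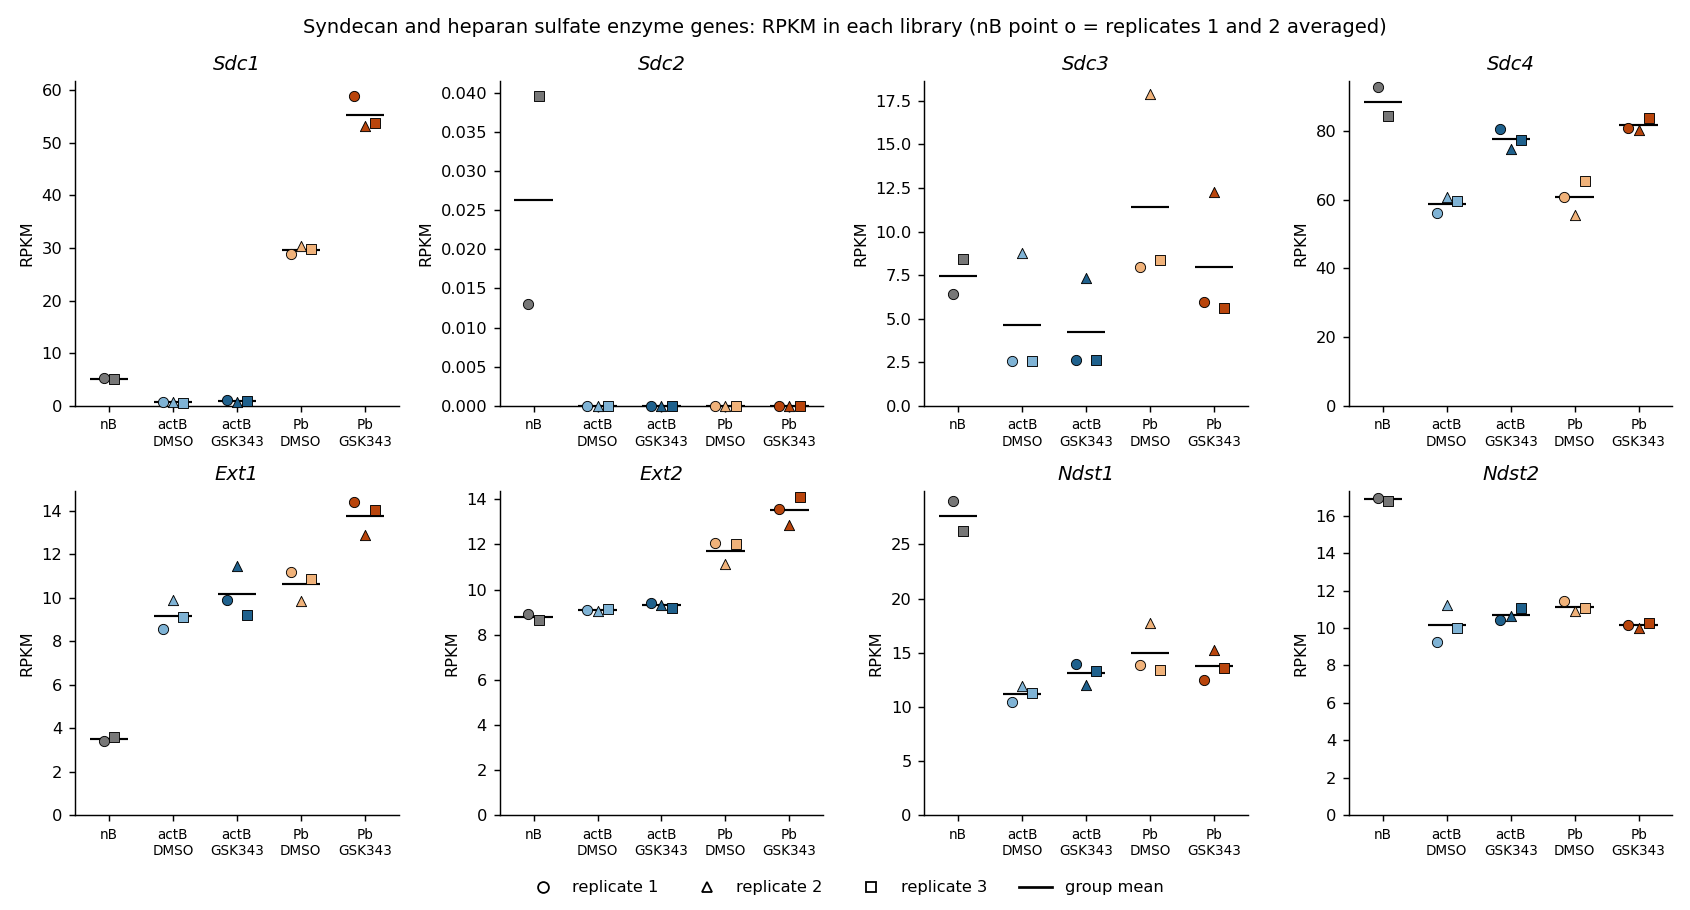
RPKM of the 8 genes (1 panel each, own vertical scale from 0) in the 5 groups, 1 point per library, with a symbol for the replicate number and a bar at the group mean. Sdc1 spans 0.532 to 58.8 RPKM, Sdc4 with GSK343 lies at 74.9 to 83.8 RPKM in the cultured groups, and the triangles of Sdc3 (replicate 2) lie above the rest of each cultured group.

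The syndecan genes together were at 104 and 98.0 RPKM in nB, 59.3 to 70.3 in actB with DMSO, 81.1 to 84.3 in actB with GSK343, 97.6 to 104 in Pb with DMSO and 143 to 146 in Pb with GSK343. Sdc4 made up 86.1% to 88.8% of this sum in nB and 86.5% to 95.1% in actB with DMSO, and 53.5% to 63.2% in Pb with DMSO. The share of Sdc1, which the gates fix in part, was 28.7% to 29.5% in Pb with DMSO and 36.5% to 40.4% in Pb with GSK343, where the cells passed the same gate.

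**Figure D2:**
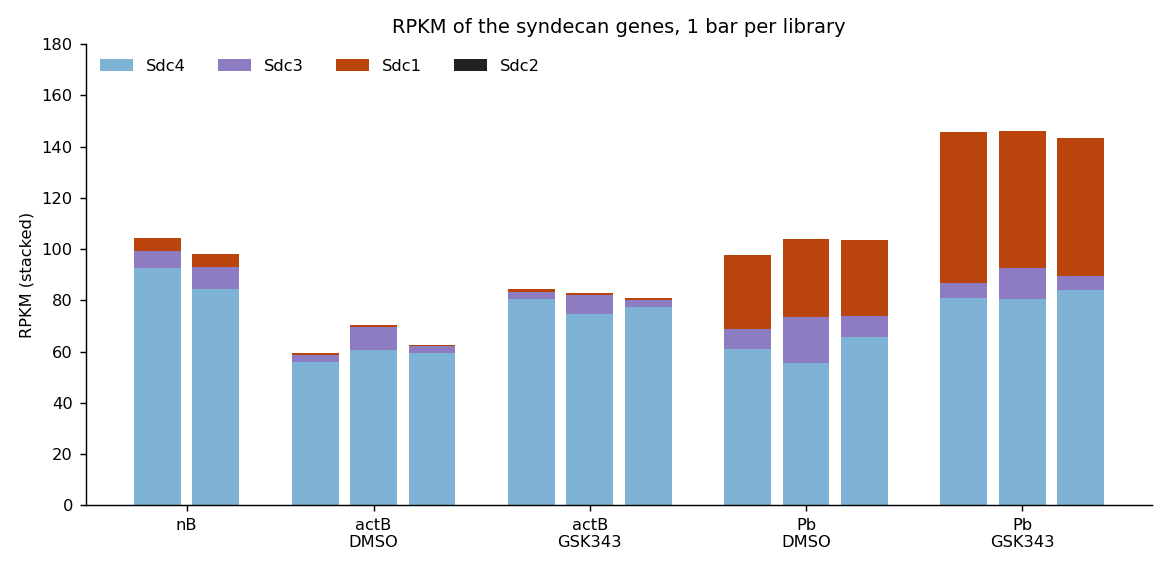
Stacked RPKM of the 4 syndecan genes, 1 bar per library (nB replicates 1 and 2 averaged), bars starting at 0. The bars reach 143 to 146 RPKM in Pb with GSK343 and 59.3 to 70.3 in actB with DMSO, and Sdc2 is too low to be seen.

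The first comparison asked what changed when naive B cells were activated in culture (actB with DMSO against nB). Of the 7 genes tested, Ext1 rose and 4 fell, where 77.2% of all 11299 genes passed the same test (40.9% higher and 36.3% lower), so the number of calls is near the background. Ext1 went from 3.49 ± 0.131 RPKM (SD, n = 2) to 9.18 ± 0.680 (n = 3), a log2 difference of 1.33 ± 0.10 (SE; limma, adjusted p = 5.8e-08). Its partner Ext2 was at 8.78 ± 0.208 and 9.09 ± 0.032 RPKM, a log2 difference of 0.05 with a 95% interval of -0.08 to 0.17.

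Both sulfotransferase genes fell. Ndst1, the main N-deacetylase/N-sulfotransferase of most tissues, was at 29.0 and 26.3 RPKM in nB and at 10.4, 11.9 and 11.3 in actB with DMSO, and fell by 1.28 on the log2 scale (SE 0.12, adjusted p = 7.1e-07). Ndst2, the form on which mast cell heparin depends, was at 17.0 and 16.8 RPKM in nB and at 9.27, 11.2 and 9.99 in actB, and fell by 0.72 (SE 0.07, adjusted p = 1.0e-06). Sdc4 fell by 0.59 (SE 0.07, adjusted p = 5.7e-06) and Sdc1, whose gate differed, by 2.58. Sdc3 differed by -0.88 with an interval of -2.13 to 0.38 (adjusted p = 0.18), and by -1.44 (adjusted p = 0.022) without actB DMSO replicate 2.

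The next comparison asked what distinguished plasmablasts from activated B cells of the same cultures (Pb against actB with DMSO). Here 5 of the 7 genes rose and none fell, with 69.7% of all genes called (27.3% higher, 42.4% lower). The 5 include Sdc1, whose rise follows from the gate. The median of all genes was -0.12 on the log2 scale, and setting it to 0 in each library moved the calls from 3086 higher and 4791 lower to 3813 and 3899 (68.3% of all genes), and called all 7 genes higher, Sdc1 again by the gate. Ext2 rose from 9.09, 9.06 and 9.12 RPKM to 12.06, 11.12 and 12.01, by 0.36 (SE 0.05, adjusted p = 4.3e-05), with no overlap. Ndst1 rose by 0.40 (SE 0.11, adjusted p = 0.0055) to 13.8, 17.7 and 13.4 RPKM. After median scaling these differences were 0.47 for Ext2 and 0.51 for Ndst1.

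The remaining calls were less firm. Ext1 rose by 0.21 (adjusted p = 0.047), with libraries that overlapped, and was not called with a replicate block (adjusted p = 0.066) or without actB DMSO replicate 1 or 3 or Pb DMSO replicate 1 or 3 (adjusted p = 0.16, 0.098, 0.15 and 0.11). Sdc3 rose by 1.39 (SE 0.52, adjusted p = 0.029). It was not called without actB DMSO replicate 1 or 3 (adjusted p = 0.11 for each) or Pb DMSO replicate 2 (adjusted p = 0.12), and with a replicate block, which called 76.2% of all genes, its adjusted p was 5.1e-06. Ndst2 differed by 0.13 (adjusted p = 0.080, and 0.0054 after median scaling), and by 0.21 (adjusted p = 0.0049) without actB DMSO replicate 2. Sdc4 differed by 0.04 with an interval of -0.09 to 0.18, and by 0.15 (adjusted p = 0.039) after median scaling. Sdc1 differed by 5.04, across the gate.

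With GSK343 in both cell types, Pb exceeded actB in Ext2 by 0.52 (SE 0.05, adjusted p = 1.3e-06) and in Ext1 by 0.43 (SE 0.09, adjusted p = 0.00064), and in Sdc1 across the gate, so 3 of 7 genes were called, all higher, where 70.5% of all genes were called and 26.4% were called higher. Sdc3 differed by 0.94 (adjusted p = 0.12), by 1.41 (adjusted p = 0.029) without actB GSK343 replicate 2, and was called with a replicate block (adjusted p = 7.4e-05), with which 76.9% of all genes were called. Ndst1 differed by 0.07 and Ndst2 by -0.07, and neither was called. The all-gene median was -0.14 here, and median scaling moved the calls from 2978 higher and 4992 lower to 3832 and 3871 (68.2% of all genes) and added Sdc4, at 0.21.

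Set against nB instead, Pb with DMSO had higher Ext1 and Ext2, higher Sdc1 by the gate, and lower Ndst1, Ndst2 and Sdc4. This makes 6 of 7 where 80.6% of all genes were called (39.5% higher and 41.1% lower). Ext1 was higher by 1.54 (SE 0.10, adjusted p = 8.6e-09) and Ext2 by 0.41 (SE 0.06, adjusted p = 2.3e-05). Ndst1 differed by -0.88 (SE 0.12, adjusted p = 1.8e-05), Ndst2 by -0.59 (adjusted p = 5.3e-06) and Sdc4 by -0.55 (adjusted p = 8.9e-06). The polymerase genes were thus higher, and the N-sulfotransferase genes lower, in plasmablasts than in naive B cells. This comparison shares its libraries with those above.

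**Figure D3:**
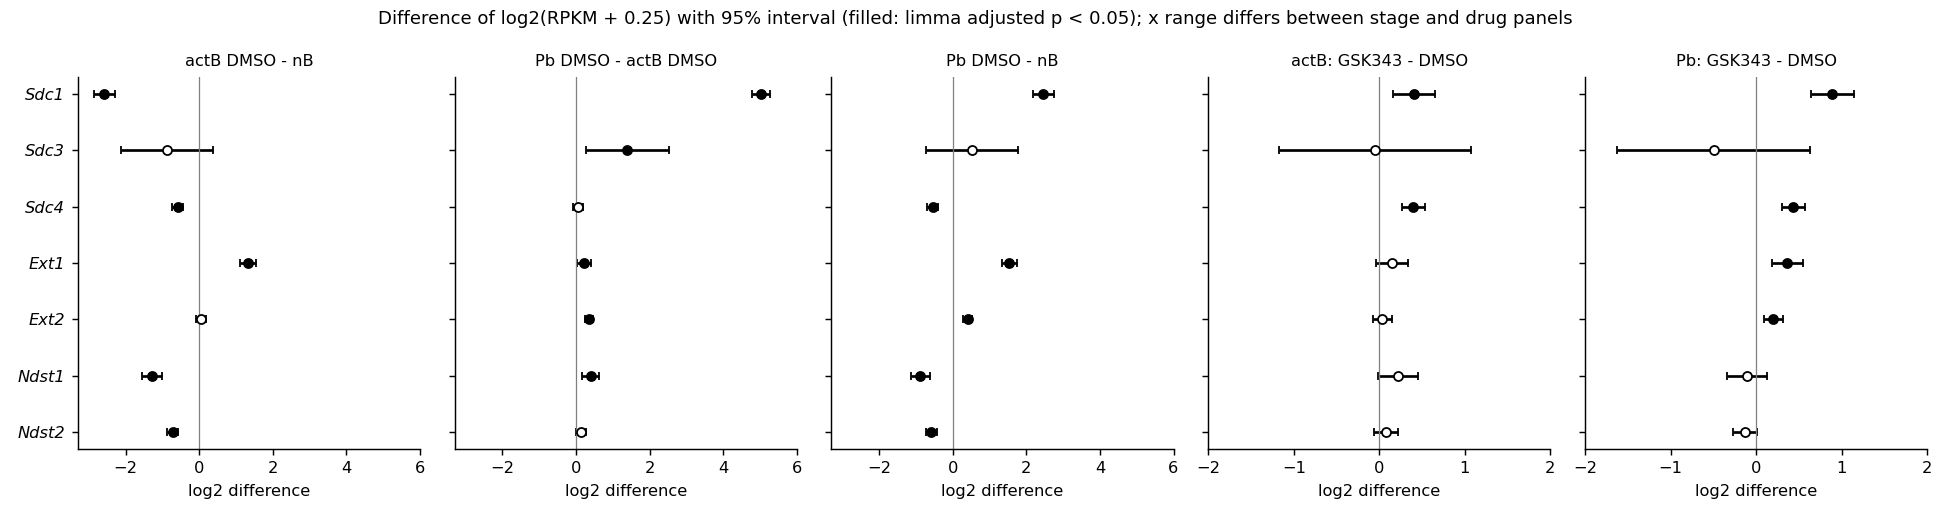
Log2 difference of RPKM + 0.25 for the 7 genes tested in 5 comparisons, with 95% intervals and filled points for adjusted p < 0.05 in limma (the horizontal range is wider in the 3 panels between stages). In Pb, GSK343 gave filled points for Sdc1 (0.89), Sdc4 (0.43), Ext1 (0.37) and Ext2 (0.20), and the interval of Sdc3 is the widest in each panel.

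GSK343 was compared with DMSO within each cell type to ask what changed when EZH2 was inhibited. In Pb, 4 of the 7 genes rose and none fell, where 12.9% of all genes were called (7.9% higher and 5% lower). Sdc1 rose by 0.89 (SE 0.11, adjusted p = 0.00058), from 29.7 ± 0.826 to 55.3 ± 3.09 RPKM (SD, n = 3), a ratio of 1.86, between cells of the same CD138+ gate. Sdc1 rose in each pair of the same number, to 2.04, 1.75 and 1.80 times the DMSO level. The gate itself selects on the protein made from Sdc1, and the paper reports more CD138+ cells in cultures with GSK343. The part of the sort in this rise, and in that of Sdc1 in actB below, was not tested. Sdc4 rose by 0.43 (SE 0.06, adjusted p = 0.0011), to 1.33, 1.45 and 1.28 times the DMSO level in those pairs. Both were called in every alternative run.

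The polymerase genes rose less. Ext1 went from 11.2, 9.85 and 10.8 RPKM to 14.4, 12.9 and 14.02, by 0.37 (SE 0.09, adjusted p = 0.016), and Ext2 from 12.06, 11.12 and 12.01 to 13.6, 12.8 and 14.1, by 0.20 (SE 0.05, adjusted p = 0.023). The GSK343 libraries lay above the DMSO libraries for each gene. Neither was called without Pb DMSO replicate 2 (adjusted p = 0.059 for Ext1 and 0.084 for Ext2), Pb GSK343 replicate 1 (0.068 and 0.076) or Pb GSK343 replicate 3 (0.063 and 0.11). Ndst1 differed by -0.11 with an interval of -0.34 to 0.12 and Ndst2 by -0.13 with an interval of -0.27 to 0.01, and neither was called.

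Sdc3 went the other way from Sdc1 and Sdc4 in Pb. Its level with GSK343 was 0.746, 0.685 and 0.672 times that with DMSO in the libraries numbered 1, 2 and 3. The log2 difference of -0.50 was not called (interval -1.62 to 0.63, adjusted p = 0.60), nor in any of the 6 fits without 1 library (adjusted p = 0.38 to 0.93). With a replicate block it was called (SE 0.12, adjusted p = 0.018). It was also called without replicate 2 of every cultured group (-0.48, adjusted p = 0.020), a setting chosen after seeing the data. With the block, 24.2% of all genes were called. In actB the ratios were 1.04, 0.836 and 1.04, and Sdc3 was not called with the block (adjusted p = 0.81), which called 21% of all genes there.

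**Figure D4:**
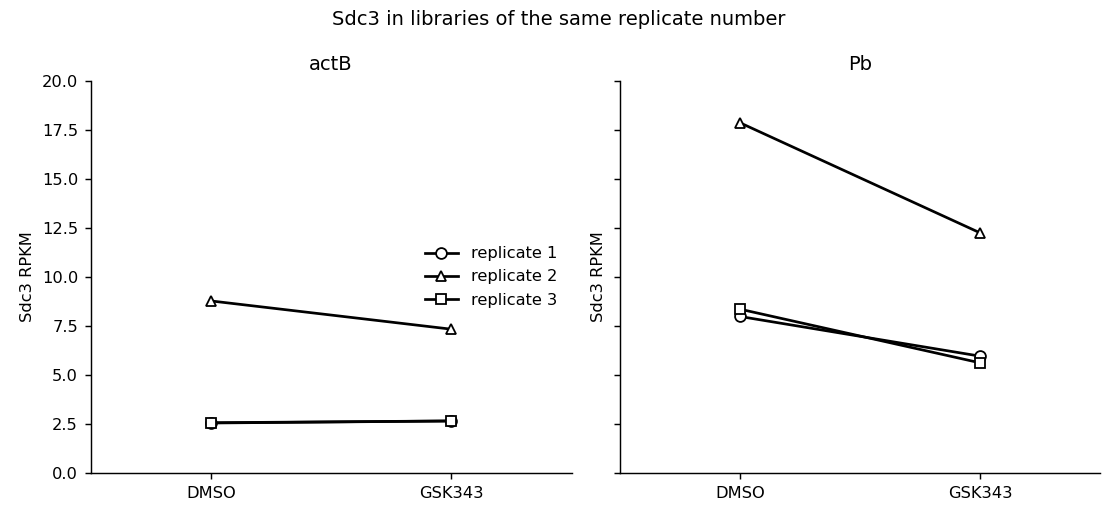
Sdc3 in RPKM with DMSO and with GSK343, in actB (left) and Pb (right), with a line joining libraries of the same replicate number. Replicate 2 lies highest throughout, and all 3 lines fall in Pb, to 0.746, 0.685 and 0.672 times the DMSO level.

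Markers of cell identity also moved in Pb. The 7 B cell markers summed to 1076 to 1102 RPKM with DMSO and to 915 to 1049 with GSK343, with Pax5 at 25.2 to 31.5 against 9.28 to 18.6. The 6 plasma cell markers summed to 3112 to 3262 RPKM with DMSO and 3148 to 3417 with GSK343, which overlap. Of the 7 B cell markers, limma called 2 lower (Pax5 and Ms4a1) and none higher, and with a replicate block it called 5 lower. Of the plasma cell markers, Irf4 was called lower (-0.25, adjusted p = 0.022) and none higher. Of all genes, 5% were called lower and 7.9% higher. The part of these markers in the higher Sdc1 was not tested.

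In actB, Sdc4 and Sdc1 were called higher with GSK343 and none was lower, 2 of 7 genes where 10.4% of all genes were called (8.2% higher and 2.16% lower). Sdc4 rose by 0.40 (SE 0.06, adjusted p = 0.0022), to 1.438, 1.231 and 1.299 times the DMSO level, and was called in every alternative run. Sdc1 rose by 0.41 (adjusted p = 0.042) at its low level in these CD138- cells, and was not called without actB DMSO replicate 2 or 3 (adjusted p = 0.052 and 0.15) or actB GSK343 replicate 1 or 3 (0.14 and 0.11), nor after quantile normalization (0.21, adjusted p = 0.43). Its call was also lost after median scaling (adjusted p = 0.058), with no filter (0.069), with a pseudocount of 1 (0.068) and with the compared groups alone (0.22). Ext1 differed by 0.14 (interval -0.04 to 0.33), Ext2 by 0.03 (-0.08 to 0.15), Ndst1 by 0.22 (-0.02 to 0.45) and Ndst2 by 0.08 (-0.06 to 0.21). Of all genes called, 79.1% were higher, and 65.1% after median scaling. Itgam, which encodes CD11b, made up most of the summed myeloid markers in actB and was at 3.50 to 4.66 RPKM with DMSO and at 6.60 to 12.8 with GSK343, while Lyz2 was at 0.270 to 0.588 and 0.348 to 1.13. The part of this in the result was not tested.

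Whether the difference with GSK343 was the same in Pb and actB was tested by the interaction term. None of the 7 genes was called by limma or edgeR, and 0.248% of all genes were by limma and 0.278% by edgeR, while 3 of the 7 had an unadjusted p under 0.05 in limma. The largest difference of the effects was that of Sdc1, 0.49 (interval 0.13 to 0.84, adjusted p = 0.32), and with a pseudocount of 1 it was 0.64 (adjusted p = 0.029). For Sdc4 the effects differed by 0.03 (interval -0.16 to 0.22). For Sdc3 the effects differed by -0.45 (interval -2.04 to 1.14, adjusted p = 0.98, and 0.24 with the block), so a difference between the cell types was not called. The difference was 0.22 for Ext1 (-0.04 to 0.49), 0.17 for Ext2 (0.01 to 0.32), -0.33 for Ndst1 (-0.66 to 0.01) and -0.21 for Ndst2 (-0.40 to -0.01).

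The wider EXT family and the other enzymes of the pathway were followed by list. Of 5 EXT family genes, 4 rose with GSK343 in Pb, where 7.9% of all genes did (list median 0.32, all genes 0.003), among them Extl2 and Extl3, which start heparan sulfate chains or act on them, at 0.32 each (adjusted p = 0.015 and 0.0058). In actB, Extl2 rose by 0.36 (adjusted p = 0.010) and Extl3 by 0.23 (adjusted p = 0.036), 2 of 5 where 8.2% of all genes rose (median 0.14, all genes 0.03). Extl3 was not called there by edgeR (adjusted p = 0.072) or after median scaling (0.097), and neither gene was after quantile normalization (0.077 for Extl2 and 0.12 for Extl3). Between stages, Extl1 fell by 2.51 and Extl2 rose by 1.03 in actB against nB, with Ext1 making 2 of 5 higher (Ext1 and Extl2) and 2 lower (median 0.05), against 40.9% and 36.3% of all genes, and Pb exceeded actB with DMSO in Extl2 by 0.86.

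The linker enzymes build the short sugar bridge by which a chain is attached to its core protein. Of 6, 4 fell and none rose in actB against nB (median -0.43), where 36.3% of all genes fell, most of all Xylt1, which adds the first sugar, from 11.5 ± 0.489 RPKM (SD, n = 2) to 0.689 ± 0.161 (n = 3), by 3.66. With GSK343, Xylt1 rose by 0.83 in actB (adjusted p = 0.0069) and 0.93 in Pb (adjusted p = 0.0034), to 1.40 and 1.87 RPKM, still under the level in nB. Fam20b, the kinase that phosphorylates the linker xylose, rose by 0.31 in actB (adjusted p = 0.0094). So 2 of 6 linker enzymes were called higher with GSK343 in actB (median 0.07) and 1 of 6 in Pb (median 0.11), against 8.2% and 7.9% of all genes. With the block Fam20b was called in Pb as well (0.19, adjusted p = 0.023), and Xylt1 was not called in actB after quantile normalization (adjusted p = 0.066).

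The enzymes acting after the NDSTs add further sulfate or turn one sugar of the chain into another. Of 5 tested, Hs3st3b1 rose by 2.04 (SE 0.12, adjusted p = 1.2e-08) in Pb against actB with DMSO and Hs3st1 fell by 1.63 (SE 0.23, adjusted p = 4.6e-05), both 3-O-sulfotransferases, so that 3 were higher and 2 lower (median 0.38, and 1 lower after median scaling), where 69.7% of all genes were called. With GSK343 in actB, Glce, the epimerase that makes iduronic acid, rose by 0.30 (adjusted p = 0.021, and 0.11 after quantile normalization) and Hs6st1 fell by 0.23 (adjusted p = 0.049), 2 of 5 where 10.4% of all genes were called, while none of the 5 was called in Pb by limma, edgeR or with the block (median 0.09, 2 with an unadjusted p under 0.05 in limma). Sulf2, a sulfatase that trims 6-O-sulfate outside the cell, fell by 3.62 in actB against nB. With GSK343 in Pb it was at 0.51 RPKM against 0.20 (difference 0.73, adjusted p = 0.056), and was called with the block (adjusted p = 0.0066) and after quantile normalization (0.028).

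Of the 8 lysosomal enzymes that break heparan sulfate down, 7 fell and 1 rose in actB against nB (median -0.80, all genes 0.05), where 36.3% of all genes fell and 40.9% rose, led by Sgsh at -2.39. In Pb against actB with DMSO 4 rose and 3 fell (median 0.22), where 69.7% of all genes were called. Gusb, the lysosomal beta-glucuronidase, rose by 1.56 (SE 0.05, adjusted p = 1.6e-10), from 27.3 ± 0.871 to 81.2 ± 0.802 RPKM (SD, n = 3 each). With GSK343 in Pb limma called 1 of these 8, Sgsh, higher by 0.35 (adjusted p = 0.015, and 0.077 after quantile normalization), and the block called 2, both higher, while in actB none was called by limma, edgeR or with the block, with 1 at an unadjusted p under 0.05 in limma.

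Among the genes that supply sugar and sulfate donors, Papss2, which makes the sulfate donor PAPS, rose with GSK343 in Pb by 1.07 (adjusted p = 0.00039), from 0.359 ± 0.041 to 1.03 ± 0.090 RPKM, and Ugdh, which makes UDP-glucuronic acid, by 0.51 (adjusted p = 0.00072). With Ugp2 they made 3 of 9 higher and none lower (median 0.12), where 7.9% of all genes were higher. In actB limma called 1 of the 9, Ugp2, at 0.38 (adjusted p = 0.0022), while edgeR called 1 higher and 1 lower and the block 3 higher and 1 lower. Between stages, Papss2 fell by 1.66 in actB against nB (adjusted p = 3.5e-07). Ugdh fell by 1.02 in Pb against actB with DMSO, where 4 of the 9 rose and 4 fell against 69.7% of all genes called, and where edgeR and median scaling left 2 of the falls.

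Of the other proteins that carry heparan sulfate or related chains, 4 of 12 were tested, and all 4 rose in Pb against actB with DMSO (median 0.85), where 27.3% of all genes rose, Agrn by 1.02 (adjusted p = 0.0027). Cd44, whose variant forms can carry heparan sulfate, rose with GSK343 in Pb by 0.46 (adjusted p = 0.0038), the only call of the 4 by limma, while the block called 2 higher and 1 lower, and in actB none of the 4 was called by limma, with 1 at an unadjusted p under 0.05, while edgeR and the block each called Srgn lower.

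**Figure D5:**
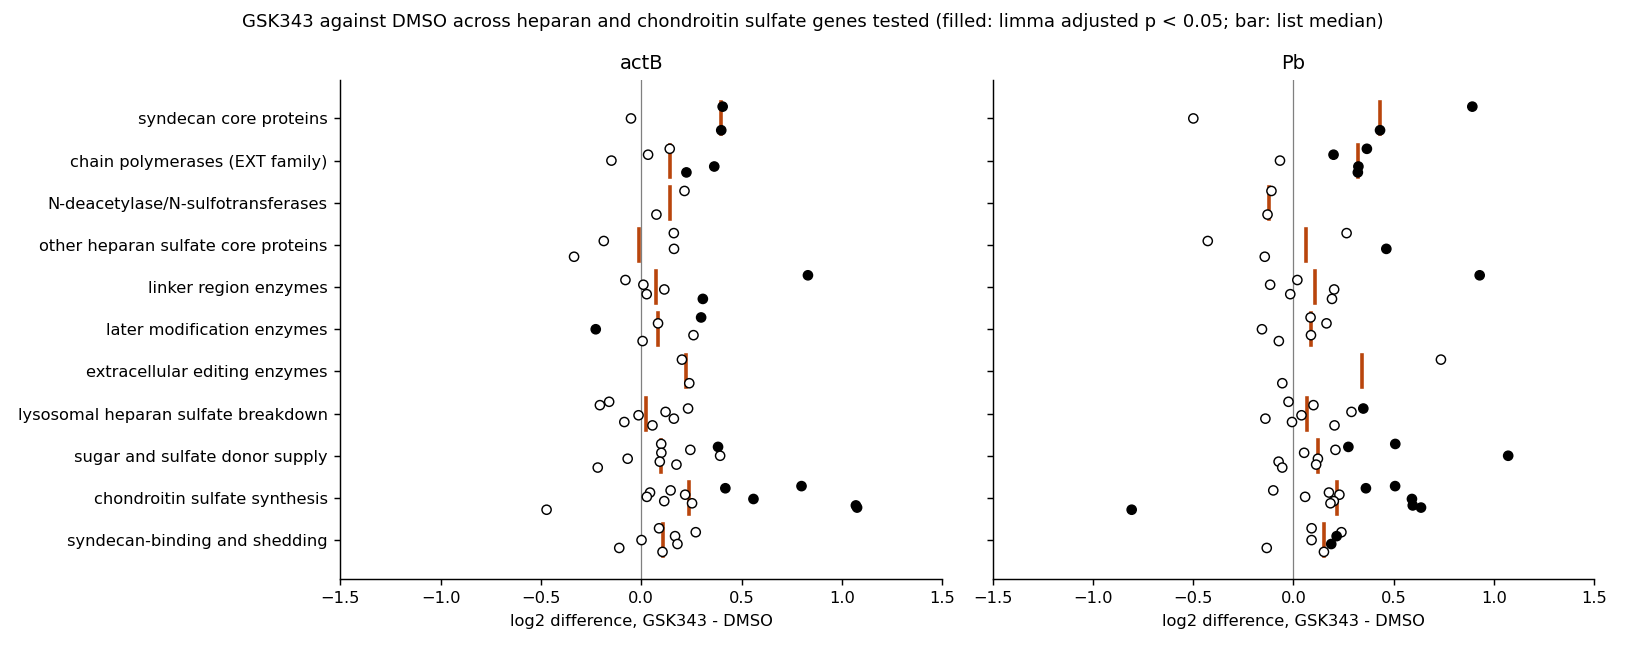
Log2 difference between GSK343 and DMSO for each tested gene of 11 lists in actB (left) and Pb (right), with filled points for adjusted p < 0.05 in limma and a bar at each list's median. Xylt1 (0.83 and 0.93) lies far right of the other linker enzymes on both sides, and Papss2 (1.07) is the rightmost point in Pb.

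For each gene tested, the genes whose log2 levels over the 14 libraries ran most like it were listed among 9059 genes with a group mean of at least 5 RPKM, as a description, since the libraries fall into 5 groups and share them. Sdc1 ran most like Gne, Alg1 and Golga2, with Pearson's r of 0.993 to 0.995. Ext1 ran most like Minpp1 (0.987), Ext2 like Apmap (0.989), Ndst1 like Marveld1 (0.986) and Ndst2 like Stxbp3 (0.972). The values were lower for Sdc3, most like Clec2d (0.954), and Sdc4, most like Aplp2 (0.924).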

How the data were processed

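Poly(A) RNA was sequenced as stranded mRNA libraries made from 500 ng of total RNA, in 15 libraries of mouse B cells. Per the study's methods, the authors mapped reads to mm9 with TopHat2 and the UCSC Known Gene transcripts, assigned reads to the exons of Entrez genes in R, and tested GSK343 against DMSO with edgeR. The values the authors deposited are RPM: each column's reads were scaled to the same total. Dividing by what 1 read was worth gave whole reads for 100% of values (within 0.1 read), which set the depth behind each value. Genes without a symbol (92) held at most 0.09% of reads.

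For levels per length, RPKM was computed as RPM over the length that the deposited table gives, in kilobases. The 11299 genes with at least 1 RPKM in at least 3 columns were tested with limma 3.58.1 (R 4.3.3) on log2(RPKM + 0.25), with all 5 groups in 1 fit (14 libraries, 9 residual degrees of freedom), two-sided, with Benjamini-Hochberg adjustment over all genes, and called at an adjusted p under 0.05. A log2 difference on this scale understates the change of low genes. All p-values printed are limma's unless edgeR 4.0.16 is named, whose quasi-likelihood test was run on the recovered reads of 11146 genes. Cultured libraries of the same replicate number tended to deviate alike. The correlation of their deviations from their group means was 0.158 to 0.713 over all pairs, against -0.603 to 0.370 between different numbers. These ranges overlap, and centring on group means ties the second range to the first. The labels write the number as m1 to m3. The block fit used the 12 cultured libraries, and the main fit did not use the numbers. The paper gives 3 biological replicates for each cell type, but nothing states that the numbers are separate mice. The p-values therefore measure the spread between these libraries. On simulated reads for Pb with GSK343 against DMSO, limma found 87% of genes changed 1.5-fold and 100% of those changed 2-fold, and called 15 unchanged genes. The simulation gave every gene the same dispersion and no effect of replicate number. These shares therefore need not hold in the real libraries, least of all for genes with a wide spread such as Sdc3.

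The 8 genes, the lists (EXT family, linker, later modification, extracellular editing and lysosomal enzymes, NDSTs, donor supply, other core proteins, chondroitin sulfate synthesis, syndecan binding and shedding, and markers) and the tests were chosen with earlier results of these data known. All 8 genes were named; from each other list up to 4 called genes per comparison were named, by size, between stages only from a log2 difference of 1, and 1 gene this rule names is not reported here. Alternatives were other pseudocounts, filters, scalings, edgeR, the replicate block and leaving out each library. Promoter sequences came from RefSeq (GRCm38.p6), exons from GENCODE vM1 on mm9.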

Additional observations from a re-analysis of the deposited data

How the results depend on the processing

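Over 931 alternatives for single genes, 860 kept direction and side of the threshold, 23 gained a call, 28 lost one and 20 changed sign, none of the last with a call on either side. The causes of these shifts were not tested. Ext2 in actB with DMSO against nB was -0.012 after quantile normalization and -0.024 after median scaling. Ndst2 in Pb against actB with GSK343 was 0.085 after quantile normalization, 0.066 after median scaling, 0.0092 in edgeR and 0.067 in edgeR with a replicate block. Ext2 with GSK343 in actB was -0.011 after quantile normalization and -0.011 in edgeR with a replicate block, and the Sdc4 interaction was -0.0088 after quantile normalization. Over the fits without 1 library, Sdc4 in Pb against actB with DMSO ran from -0.015 to 0.10, Ndst1 in Pb against actB with GSK343 from -0.0031 to 0.14, Sdc3 with GSK343 in actB from -0.51 to 0.51, Ndst1 with GSK343 in Pb from -0.18 to 0.015, and the interaction from -1.01 to 0.014 for Sdc3 and from -0.028 to 0.089 for Sdc4. Without replicate 2 of every cultured group, chosen after seeing the data, Ndst1 in Pb against actB with GSK343 was -0.062, Sdc3 with GSK343 in actB 0.049 and the Sdc4 interaction -0.066.

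Of the 7 genes, those called in Pb against actB with DMSO numbered 3 with the compared groups alone or no filter, and 3 to 6 without 1 library. Sdc1 is among the 7 in every count here, though between stages it follows the gate. With GSK343 in both, 6 were called by edgeR with a replicate block and 3 to 4 without 1 library. For GSK343 in actB 1 was called with the compared groups alone, median scaling, no filter, a pseudocount of 1 or quantile normalization, and 1 to 2 without 1 library; in Pb 2 to 4 without 1 library. A pseudocount of 1 called 1 for the interaction. Against nB, 5 to 6 (actB) and 6 (Pb) were called without 1 library, and 0 for the interaction. Of all genes, GSK343 in actB called 386 with the compared groups alone, 2368 with the replicate block, 3005 by edgeR with the block and 608 to 1363 without 1 library, and in Pb 2740 with the block, 3061 by edgeR with it and 690 to 1304 without 1 library. The count in actB was 608 and 646 without DMSO replicate 1 and 3 and 708 and 627 without GSK343 replicate 1 and 3, and in Pb it was 819 and 921 without DMSO replicate 1 and 3 and 741 and 690 without GSK343 replicate 1 and 3. The interaction called 28 genes, and 48 with all 15 columns, 4 with the compared groups alone, 18 after quantile normalization, 83 with the block, 293 by edgeR with it, 146 without replicate 2 of every cultured group and 0 to 58 without 1 library. The block, which pairs libraries by number, gave Sdc3 a call with GSK343 in Pb and between Pb and actB with GSK343, took that of Ext1 between Pb and actB with DMSO, and changed no other call of the 7 genes. For all genes called between stages the ranges without 1 library were 7982 to 8747 (actB against nB), 7340 to 7788 (Pb against actB with DMSO), 8463 to 8932 (Pb against nB) and 7463 to 7796 (Pb against actB with GSK343). Sdc1 in actB rests on 44 to 104 reads a library, and Sdc2, with at most 3 reads a library, was tested only without the filter, where it was called lower in actB and in Pb than in nB (-0.14 each, adjusted p = 0.0044 and 0.0040).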

Other observations

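Chondroitin sulfate, the sister chain that is built on the same linker and can sit on syndecan-1, was followed with 12 tested genes of its synthesis. In actB with DMSO against nB, 7 fell and 2 rose (median -0.76, all genes 0.05), where 77.2% of all genes were called. Chst15, which adds a second sulfate to the chain's N-acetylgalactosamine, fell by 3.20 (SE 0.13, limma adjusted p = 2.4e-10), from 34.4 ± 1.89 RPKM (SD, n = 2) to 3.57 ± 0.742 (n = 3). Chst3, a 6-O-sulfotransferase, fell by 1.97. In Pb against actB with DMSO, 8 rose and 3 fell (median 0.68, all genes -0.12), where 69.7% of all genes were called, and Chpf, a polymerizing factor, rose by 2.42 (SE 0.10, adjusted p = 8.3e-10), Chst11, a 4-O-sulfotransferase, by 2.37 (SE 0.14, adjusted p = 1.6e-08) and Dsel, a dermatan sulfate epimerase, by 1.85 (SE 0.14, adjusted p = 1.3e-07).

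With GSK343, 5 of these 12 genes rose in actB and none fell by limma, with 1 lower by edgeR, with the block and after median scaling (median 0.24), where 8.2% of all genes rose. In Pb 5 rose and Dsel fell by 0.81 (median 0.21), where 7.9% of all genes rose and 5% fell, and edgeR called 4 higher and the block 7. Dse, the other dermatan sulfate epimerase, rose by 1.08 in actB (adjusted p = 0.00071), from 0.864 ± 0.0396 to 2.10 ± 0.207 RPKM, and Chst15 by 1.07 (adjusted p = 0.00031), and in Pb they rose by 0.64 (adjusted p = 0.011) and 0.59 (adjusted p = 0.0062). None of the 12 was called for a difference between the effects in Pb and actB, with Chst15 at -0.48 (adjusted p = 0.35), and edgeR and the block also called none, while 3 had an unadjusted p under 0.05 in limma.

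Of 7 tested genes for proteins that bind syndecan tails or shed syndecans, 4 fell and 1 rose in actB against nB (median -0.29), where 77.2% of all genes were called, and edgeR and median scaling each called 5 lower and 0 higher. The falls were led by the protease gene Mmp9 at -2.76, from 1.55 RPKM in nB to 0.01 in actB. Gipc1, which binds the tail, rose by 0.22 and the sheddase gene Adam10 by 0.19 with GSK343 in Pb (adjusted p = 0.041 for each), and neither was called by edgeR or after median scaling.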
